A study of Rattus norvegicus with 6 samples.

Results

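The miRNAs described here are the 6 members of the miR-219 and miR-338 families among the 562 mature rat miRNAs listed for the hypothalamic arcuate nucleus (ARC). They were chosen by name, as every listed miRNA that begins with rno-miR-219 or rno-miR-338, whichever arm of its hairpin it comes from. The members are rno-miR-219a-2-3p, rno-miR-219a-1-3p, rno-miR-219a-5p, rno-miR-219b, rno-miR-338-5p and rno-miR-338-3p. The ARC came from Sprague-Dawley rats of 8-10 weeks, on Day 14 after surgery. In CCI-ION rats, a model of trigeminal neuropathic pain, the left infraorbital nerve, a sensory branch of the face, was loosely tied with silk. In sham rats the nerve was exposed on one side and not tied, so both groups had the surgery and neither was left intact. There were 3 libraries from sham rats and 3 from CCI-ION rats. The study gives more rats than libraries for each group of this sequencing. How the rats were assigned to libraries, or pooled, is not given in the sources used here, so n counts libraries and p-values measure the spread between these libraries, which may be technical. The question put to these data was whether the levels of these miRNAs differed between the groups.

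miR-219 and miR-338 are the miRNAs best known from the oligodendrocyte, the cell that makes the myelin of the brain. They rise as precursor cells stop dividing and differentiate, and they repress genes that keep cells in the precursor state, such as Pdgfra, Sox6 and Hes5. A miRNA hairpin can give a mature miRNA from each of its arms, named 5p and 3p, and the seed near the 5′ end of a mature miRNA is the stretch that mainly decides which messages it pairs with. The hairpin of miR-338 lies in the gene Aatk, and miR-338 is also known from neurons. The tables used here list mature miRNAs only, so messages of myelin genes such as Mbp were not analysed here, and the link of these miRNAs to oligodendrocytes is background here. In bulk tissue, fewer cells of a type and less miRNA per cell cannot be told apart.

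The mature sequences are shown because the members share names but not seeds. They are from RefSeq on the build GRCr8, 5′ to 3′, with the seed (bases 2 to 8) in capitals. The last line is miR-3065-5p, which is no member and lies on the strand opposite miR-338-3p.
miR-219a-2-3p: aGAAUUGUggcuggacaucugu
miR-219a-1-3p: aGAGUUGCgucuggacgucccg
miR-219a-5p: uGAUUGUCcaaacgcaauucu
miR-219b: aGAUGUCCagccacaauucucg
miR-338-5p: aACAAUAUccuggugcugagug
miR-338-3p: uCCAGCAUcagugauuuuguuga
miR-3065-5p: uCAACAAAaucacugaugcu

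No seed of a member was found in any other of the 512 listed miRNAs that matched a RefSeq sequence. A seed of its own was common, since 368 of these 512 miRNAs (71.9%) had one. miR-219a-2-3p and miR-219a-1-3p had the same base at 15 of 22 positions. Counted from the 5′ end, with the base of miR-219a-2-3p first, they differed by A4G, U8C, G10U, A17G, U20C, G21C and U22G, and A4G and U8C fall in the seed. The GC content of the members ran from 38.1% in miR-219a-5p to 63.6% in miR-219a-1-3p.

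The 3 hairpins are shown next, with the mature arms in capitals, because they show which members come from one precursor.
Mir219-2: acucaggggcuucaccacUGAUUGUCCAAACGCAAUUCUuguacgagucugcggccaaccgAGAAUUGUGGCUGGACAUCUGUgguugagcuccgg
Mir219a1: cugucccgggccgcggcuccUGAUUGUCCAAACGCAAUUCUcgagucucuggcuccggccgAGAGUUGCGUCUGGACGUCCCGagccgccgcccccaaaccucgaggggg
Mir338: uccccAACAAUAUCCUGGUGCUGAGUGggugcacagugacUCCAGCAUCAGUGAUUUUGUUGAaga

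Mir219-2 lies on chromosome 3 (chr3:33516504-33516599, minus strand, GRCr8), within the spans of the coding gene Cercam on the opposite strand and of a long noncoding RNA gene on the same strand. Mir219a1 lies on chromosome 20 (chr20:4831580-4831689, plus strand, GRCr8), between Hsd17b8 and Ring1. Mir338 lies on chromosome 10 (chr10:105796342-105796407, minus strand, GRCr8), within the span of Aatk on the same strand. Exons and introns were not analysed here. miR-219a-5p was the only member found whole in 2 hairpins, Mir219-2 and Mir219a1, so its reads cannot be divided between them, while the other 5 members each had 1 hairpin. miR-219b (chr3:33516519-33516540, plus strand) comes from the strand opposite Mir219-2 and shares 20 of 22 positions with the complement of miR-219a-2-3p. miR-338-3p shares 20 of its 23 positions with miR-3065-5p in the same way. Of the 419 hairpins in the RefSeq table, 78 (18.6%) had a miRNA gene on the opposite strand.

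Levels are given as normalized counts, that is, the reads of a miRNA over the size factor of its library. Where 3 values are given for a group, they are those of replicates 1, 2 and 3 in that order. The libraries held 8628309 to 14313839 reads, and CCI-ION replicates 2 and 3 held fewer than any sham library. The smallest value above 0 stood for 5 reads in each library, and a listed 0 can hide fewer reads than that. A library listed 24 to 48 of the 562 miRNAs at 0.

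The members covered a wide range of levels in sham rats, and the order of the levels placed miR-219a-2-3p first. Among the 562 miRNAs its sham mean ranked 75, that of miR-338-5p ranked 117, that of miR-338-3p ranked 261 and that of miR-219a-1-3p ranked 383. miR-219b and miR-219a-5p ranked 495 and 515. The sham values of neighbouring members did not overlap from miR-219a-2-3p down to miR-219b, whereas those of miR-219b and miR-219a-5p did. These levels count reads listed for mature miRNAs of similar length, and how evenly different miRNAs were captured was not tested. The order is thus one of reads. The miRNAs next above and next below each member in sham mean give a scale for its level. Their sham values overlapped with its own in all 6 cases, which follows largely from how they were picked. For miR-219a-2-3p these were miR-148b-3p, with a sham mean of 11250.4 normalized counts, and miR-1843b-5p, with 10565 normalized counts. For miR-338-5p they were miR-369-5p (5103 normalized counts) and let-7d-3p (4965 normalized counts). For miR-338-3p they were miR-181c-3p (516 normalized counts) and miR-125a-3p (515 normalized counts). For miR-219a-1-3p they were miR-673-5p (66.8 normalized counts) and miR-666-3p (66.0 normalized counts).

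The 3 abundant members, miR-219a-2-3p, miR-338-5p and miR-338-3p, had lower normalized counts in every CCI-ION library than in any sham library. Of all 555 miRNAs tested, 118 (21.3%) were lower in this way. Among the members 1, miR-338-3p, passed the test, as did 38 of the 555 (6.85%) in either direction. miR-338-3p was 58.4% lower in CCI-ION rats, while miR-219a-2-3p and miR-338-5p were 32.8% and 32.4% lower and did not pass. miR-219a-1-3p did not differ beyond the spread between libraries, and the remaining members, miR-219b and miR-219a-5p, were at the limit of detection.

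miR-338-3p, the arm of miR-338 most often studied, had 489, 512 and 546 normalized counts in the sham libraries against 181, 214 and 248 normalized counts in the CCI-ION libraries. The lowest sham library was far above the highest CCI-ION library. The sham mean was 516 ± 28.7 normalized counts and the CCI-ION mean 214 ± 33.1 (SD, n = 3 each). The log2 fold change was -1.27 on the log2(normalized count + 1) scale (standard error 0.15, 95% confidence interval -1.64 to -0.90), with an adjusted p of 0.0190 from limma with Benjamini-Hochberg adjustment over the 555 miRNAs tested. It had the 6th lowest p of the 555, and 32 miRNAs had a lower log2 fold change. The exact permutation test over the 20 assignments of libraries gave p = 0.1, two-sided, which is the smallest it can give with 3 libraries a group. The call rested on all the sham libraries: without replicate 1, 2 or 3 of the sham group, the limma adjusted p was 0.0619, 0.0699 and 0.0680, with log2 fold changes of -1.31, -1.28 and -1.23. Without any 1 of the CCI-ION libraries it stayed between 0.0237 and 0.0277. With the replicate number as a block it was 0.0823, and miR-338-3p did not pass.

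miR-338-5p, from the other arm of the same hairpin, had 4520.1, 4794 and 5897 normalized counts in the sham libraries against 3396, 3692 and 3189 normalized counts in the CCI-ION libraries. The groups did not overlap. The sham mean was 5070.3 ± 729 and the CCI-ION mean 3426 ± 253 (SD, n = 3 each). The log2 fold change was -0.56 (standard error 0.15, 95% confidence interval -0.92 to -0.20), and the adjusted p was 0.0788 from limma with Benjamini-Hochberg adjustment, above the threshold of 0.05. The exact permutation test gave p = 0.1. It passed with upper-quartile scaling (limma adjusted p 0.0287), with the intensity trend of limma (0.0329) and when each library had to hold at least 10 reads of a miRNA (0.0434). It did not pass with libraries scaled by total counts (log2 fold change -0.36, limma adjusted p 0.164) or with the replicate number as a block (0.172). Without sham replicate 1, 2 or 3 the limma adjusted p was 0.116, 0.179 and 0.205.

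miR-219a-2-3p, from the 3p arm of Mir219-2, had 8668, 9690.2 and 13473 normalized counts in the sham libraries against 6951, 7397 and 7035 normalized counts in the CCI-ION libraries. The CCI-ION libraries lay close together and below all sham libraries, while sham replicate 3 stood above the other sham libraries. The sham mean was 10610.4 ± 2532 and the CCI-ION mean 7128 ± 237 (SD, n = 3 each). The log2 fold change was -0.55 (standard error 0.19, 95% confidence interval -1.02 to -0.08), and the adjusted p was 0.118 from limma with Benjamini-Hochberg adjustment. The exact permutation test gave p = 0.1. Without sham replicate 3 the log2 fold change was -0.36, and with upper-quartile scaling it was -0.80 and passed (limma adjusted p 0.0454). With libraries scaled by total counts it was -0.35 and did not pass (limma adjusted p 0.261). On the log2 scale the SD between sham libraries was 0.33 for miR-219a-2-3p, 0.20 for miR-338-5p and 0.08 for miR-338-3p, and the median was 0.13 over the 364 miRNAs whose mean reached 100 normalized counts.

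miR-219a-1-3p, from the hairpin on chromosome 20, had 98.3, 43.2 and 56.5 normalized counts in the sham libraries against 84.7, 98.6 and 96.9 normalized counts in the CCI-ION libraries. Sham replicate 1 was level with the CCI-ION libraries and the other sham libraries were below them, so the groups overlapped. The sham mean was 66.0 ± 28.7 and the CCI-ION mean 93.4 ± 7.61 (SD, n = 3 each). The log2 fold change of 0.58 had a 95% confidence interval of -0.20 to 1.35 and an adjusted p of 0.238 from limma with Benjamini-Hochberg adjustment (exact permutation p = 0.3). It was 0.90 without sham replicate 1 and 0.32 without sham replicate 2. Its reads numbered 52 to 91 a library, so it was measured far less precisely than the 3 abundant members.

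miR-219b, from the opposite strand of Mir219-2, was listed at 13.7, 5.82 and 7.59 normalized counts in the sham libraries, at 8.37 in CCI-ION replicate 1 and at 0 in CCI-ION replicates 2 and 3. These values stand for 12, 7 and 9 reads in the sham libraries and 9 reads in CCI-ION replicate 1. miR-219a-5p, the shared 5p arm of both miR-219a hairpins, was listed in sham replicate 1 at 8.00 normalized counts (7 reads) and in sham replicate 3 at 11.8 (14 reads), and at 0 in sham replicate 2 and all CCI-ION libraries. Both miRNAs thus had listed values in more sham than CCI-ION libraries, but their values overlapped between the groups and no fold change is given against libraries listed at 0. Neither passed, with limma adjusted p-values of 0.174 for miR-219b and 0.169 for miR-219a-5p (Benjamini-Hochberg). Each passed in 1 fit that left out a library, miR-219b without CCI-ION replicate 1 (limma adjusted p 0.0262) and miR-219a-5p without sham replicate 2 (0.00336). With 0 to 14 reads a library, a difference could not be resolved at this depth.

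**Figure D1:**
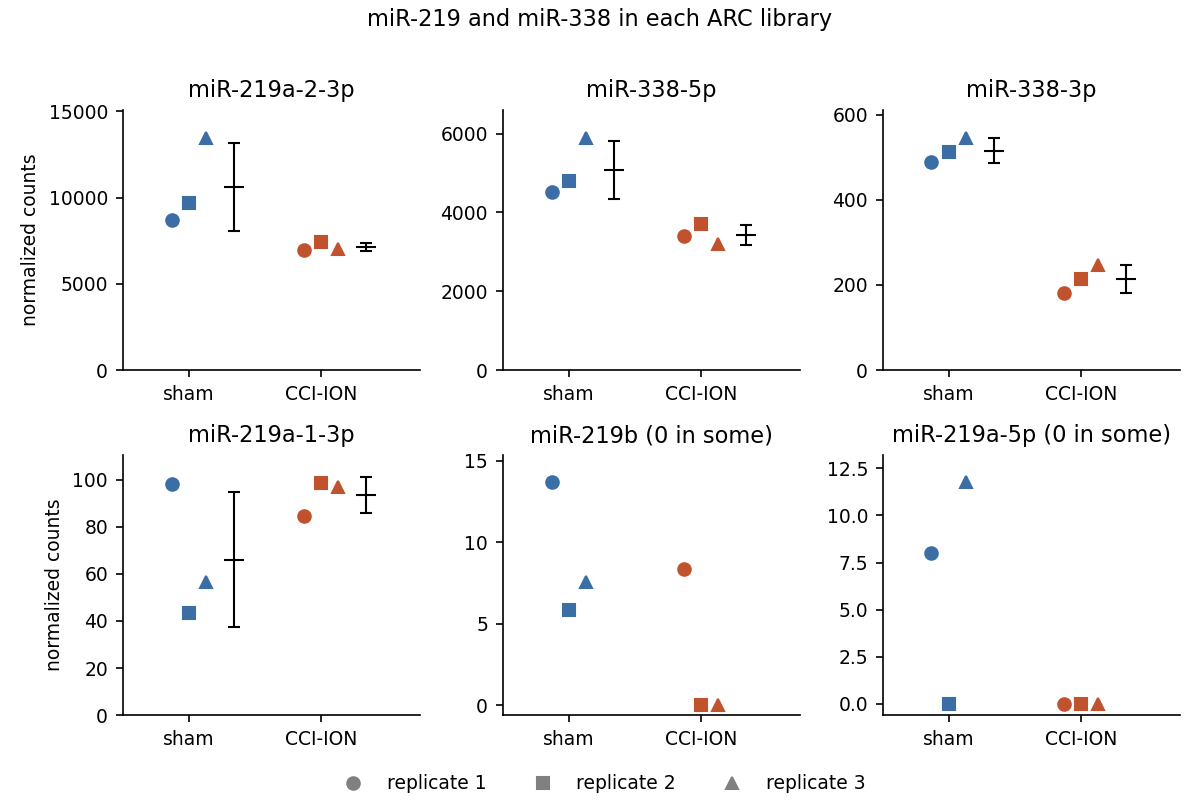
Normalized counts (vertical axis, linear, a scale of its own in each panel) of the 6 members in the 3 sham and 3 CCI-ION libraries, with marker shapes for replicates 1, 2 and 3 and, for 4 members, the mean with its SD (n = 3). The CCI-ION points of miR-219a-2-3p, miR-338-5p and miR-338-3p lie below every sham point, those of miR-219a-1-3p overlap with sham replicate 1, and miR-219b and miR-219a-5p are at 0 in some libraries.

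All 6 members entered the test, which took miRNAs with a mean of at least 1 normalized count. Of the 555 miRNAs tested, 38 (6.85%) passed the threshold. The CCI-ION level was the higher one for 19 of these and the lower one for 19 (3.42% of all tested). An unadjusted p under 0.05 was found for 183 (33.0%). Of the 6 members 1 passed, in the lower direction, and 3 had an unadjusted p under 0.05. Lower values in every CCI-ION library than in any sham library were found for 118 of the 555 miRNAs (21.3%) and for 3 of the 6 members. With so few members, these counts describe them and give no test of the families as a whole. Over the miRNAs tested the median log2 fold change was -0.01, and it was 0.17 when libraries were scaled by total counts and -0.26 with upper-quartile scaling. Of the calls, 50.0% were higher in CCI-ION rats as reported, 82.4% with total counts, 61.2% with library sizes without the most abundant miRNA and 10.6% with upper quartiles. miR-338-3p passed under each scaling and lay below the median of all miRNAs in each, with log2 fold changes of -1.07 with total counts and -1.52 with upper quartiles. None of these scalings changed the direction of miR-219a-2-3p, miR-338-5p, miR-338-3p or miR-219a-1-3p.

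**Figure D2:**
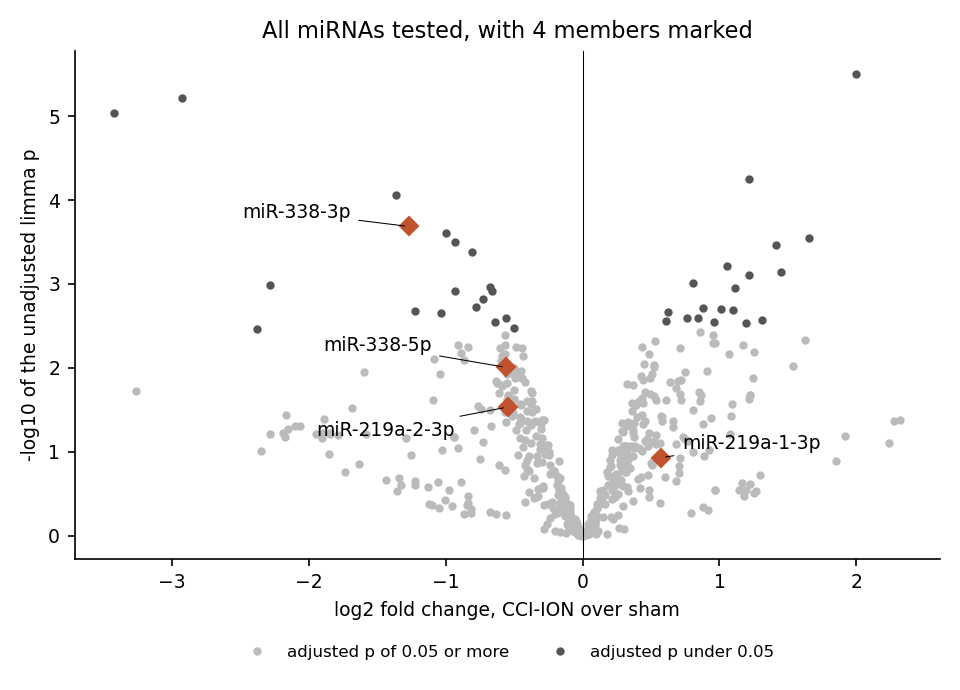
Log2 fold change, CCI-ION over sham (horizontal axis), against -log10 of the unadjusted limma p (vertical axis) for the 555 miRNAs tested, with dark points for the 38 with an adjusted p under 0.05. Diamonds mark the 4 members above 0 in all libraries: miR-338-3p at -1.27 lies among the dark points, miR-338-5p at -0.56 and miR-219a-2-3p at -0.55 lie below the threshold, and miR-219a-1-3p is at 0.58.

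Ratios between members do not depend on the scaling of the libraries, and they were used to ask whether the members differed by unlike amounts. The ratio of miR-219a-2-3p to miR-338-5p, which come from separate chromosomes, was 1.92, 2.02 and 2.28 in the sham libraries against 2.05, 2.00 and 2.21 in the CCI-ION libraries. These values overlapped fully, with a difference of 0.01 in the mean log2 ratio (exact permutation p = 0.9). The difference stayed between -0.04 and 0.08 with each library left out in turn. The ratio of miR-219a-2-3p to miR-338-3p was 17.7, 18.9 and 24.7 in sham rats and 38.3, 34.5 and 28.4 in CCI-ION rats. Here every CCI-ION library was above every sham library, a difference of 0.72 on the log2 scale (exact permutation p = 0.1, and 0.133 adjusted over the 4 pairs). The ratio of miR-219a-2-3p to miR-219a-1-3p was 88.2, 224 and 239 in sham rats and 82.1, 75.0 and 72.6 in CCI-ION rats. Sham replicate 1 was close to the CCI-ION libraries in this ratio and the other sham libraries were far above (difference -1.12 on the log2 scale, exact permutation p = 0.1, adjusted 0.133). With 3 libraries a group no pair could reach a p under 0.1, and the miR-338-5p to miR-338-3p ratio was the 4th pair.

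Both arms of Mir338 were listed in all libraries, and the 5p arm had more reads in each. There were 9.24, 9.36 and 10.8 normalized counts of miR-338-5p for each of miR-338-3p in the sham libraries against 18.7, 17.2 and 12.9 in the CCI-ION libraries. The ratio was higher in every CCI-ION library than in any sham library (exact permutation p = 0.1, adjusted over the 4 pairs 0.133). On the log2 scale, with 1 added to each arm, the sham mean was 3.29 ± 0.12 and the CCI-ION mean 4.00 ± 0.28 (SD, n = 3 each). The difference was 0.71 (standard error 0.19, 95% confidence interval 0.24 to 1.18), and the adjusted p was 0.0660 from limma with Benjamini-Hochberg adjustment over 190 hairpins with both arms measured. Of these hairpins 20 (10.5%) passed, and Mir338 was not among them. It did pass when both arms needed a mean of at least 10 normalized counts (limma adjusted p 0.0410), when both needed at least 10 reads in every library (0.0309) and without CCI-ION replicate 3 (difference 0.87, adjusted p 0.0398). Without sham replicate 1, 2 or 3 the limma adjusted p was 0.230, 0.180 and 0.153. Without CCI-ION replicate 1 or 2 it was 0.142 and 0.109, and with the replicate number as a block 0.150. A 5p arm above its 3p arm was found in 99 of the 190 hairpins, and Mir338 ranked 51 when they were ordered by the ratio of 5p to 3p.

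In Mir219-2 the 3p arm had more reads. miR-219a-2-3p had 6075 to 15985 reads a library, and miR-219a-5p, which both miR-219a hairpins can give, had 0 to 14. Even miR-219a-1-3p, the 3p arm of the other hairpin, had more reads than miR-219a-5p in every library. Of the 33 listed miRNAs found whole in at least 2 hairpins, 24 had a sham mean of at least 1000 normalized counts, and miR-219a-5p ranked 32 among the 33. How reads that match several hairpins were counted is not given in the sources used here, and its part in the level of miR-219a-5p was not tested. On the strand opposite Mir338, miR-3065-5p was listed at 5.71, 4.99 and 5.90 normalized counts in the sham libraries against 11.2, 6.09 and 0 in the CCI-ION libraries. It thus stayed far below miR-338-3p in each library, and it did not pass (limma adjusted p 0.692, Benjamini-Hochberg).

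**Figure D3:**
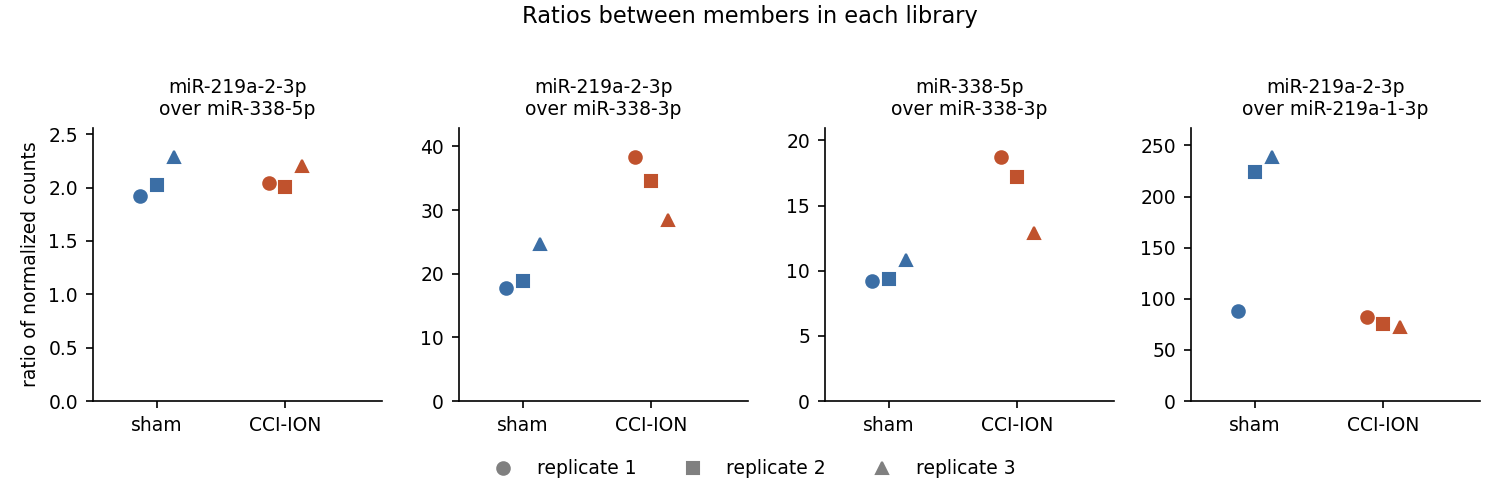
Ratio of normalized counts (vertical axis, linear from 0) in each library for the 4 pairs of members, with marker shapes for replicates 1, 2 and 3. The ratio of miR-219a-2-3p to miR-338-5p is near 2 in both groups, both ratios to miR-338-3p are higher in every CCI-ION library, and miR-219a-2-3p over miR-219a-1-3p is near the CCI-ION values in sham replicate 1 only.

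As a level that uses no size factor, the reads of all 6 members were taken as a percent of all miRNA reads. They made up 0.109%, 0.133% and 0.166% in the sham libraries against 0.101%, 0.109% and 0.102% in the CCI-ION libraries. The groups met at their edges: the 95% Wilson interval was 0.107 to 0.111% in sham replicate 1 and 0.106 to 0.111% in CCI-ION replicate 2. These intervals cover counting error only. The sham mean was 0.136% ± 0.0287 and the CCI-ION mean 0.104% ± 0.00398 (SD, n = 3 each), with an exact permutation p of 0.1. The difference, CCI-ION minus sham, was -0.0318 percentage points, and it was -0.0168 without sham replicate 3 and -0.0521 when miR-7a-5p, the most abundant miRNA, was left out of the total. For miR-219a-2-3p alone the shares overlapped, with 0.0682% in sham replicate 1 and 0.0704% in CCI-ION replicate 2 (exact permutation p = 0.2). For miR-219a-1-3p they did not overlap and were higher in the CCI-ION libraries (exact permutation p = 0.1). miR-7a-5p took 16.8 to 24.4% of the reads in sham rats and 7.90 to 13.5% in CCI-ION rats, and so moved the total that these shares divide by.

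Lists of miRNAs known from cell types of the brain and its vessels were set beside the members. The oligodendrocyte differentiation list held the 6 members and 5 other miRNAs linked to the same step. Of its 11 miRNAs 1 fell, miR-338-3p, and none rose, while 4 had an unadjusted p under 0.05. Both counts are near those over all miRNAs, 6.85% and 33.0%, and so are no result about the list. Its median log2 fold change was -0.55, against -0.01 for all 555 miRNAs, but over the 5 miRNAs that are no members it was -0.04 and none of them passed. Its most abundant miRNA, miR-23b-3p, which is known from astrocytes and endothelium as well, had a log2 fold change of 0.06 (limma adjusted p 0.767, Benjamini-Hochberg). miR-138-5p, which acts early in oligodendrocyte differentiation, was named after its values were seen. It had a sham mean of 2143 ± 272 normalized counts and a CCI-ION mean of 1573 ± 235 (SD, n = 3 each). Its log2 fold change was -0.45 (limma adjusted p 0.142, Benjamini-Hochberg). For miR-23a-3p and miR-146a-5p, also no members, the log2 fold changes were 0.22 and -0.04 (limma adjusted p 0.423 and 0.847). The remaining miRNA that is no member, miR-32-5p, was at 0 in some libraries (limma adjusted p 0.564).

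The oligodendrocyte precursor list, which includes miRNAs of the dividing precursor such as the miR-17-92 cluster, had a median log2 fold change of 0.00 on 11 listed miRNAs. Of these, miR-27a-3p rose, with a log2 fold change of 0.96 (limma adjusted p 0.0450, Benjamini-Hochberg), and none fell. An unadjusted p under 0.05 was found for 3, against 33.0% of all miRNAs. miR-27a-3p is among the miRNAs the study picked from these libraries, so it is not independent evidence of a direction. miR-7a-5p, its most abundant miRNA and one rich in hypothalamic neurons, had a log2 fold change of -1.04 (limma adjusted p 0.0828). Both lists together gave 2 calls among 22 miRNAs, miR-338-3p lower and miR-27a-3p higher. Over all miRNAs tested 6.85% passed, so this count is near that share and is no result about the lists.

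Some markers of other cells, on the neuron and the vascular lists, also differed between the same libraries. Over all 555 miRNAs tested, 19 passed as lower (3.42%) and 19 as higher. The neuron list was mixed: of its 10 miRNAs 6 had log2 fold changes below 0 and 4 above, from -1.26 to 0.45, with a median of -0.16. By the test 2 fell, miR-124-3p with a log2 fold change of -0.78 (limma adjusted p 0.0435, Benjamini-Hochberg) and miR-218a-5p with one of -0.93 (0.0190), and none rose. The most abundant, miR-128-3p, had a log2 fold change of -0.91 (limma adjusted p 0.0597). miR-129-5p, named after its values were seen, went the other way, with 206605 ± 5981 normalized counts as the sham mean and 283191 ± 25777 as the CCI-ION mean (SD, n = 3 each), and did not pass (log2 fold change 0.45, limma adjusted p 0.0762). The neuron list summed to 806502 to 1033877 normalized counts in sham libraries and 617971 to 721207 in CCI-ION libraries. Relative to that sum, the 3 abundant members made up 1.70%, 1.65% and 1.93% in the sham libraries against 1.53%, 1.57% and 1.69% in the CCI-ION libraries, so that the groups overlapped. Most of the neuron sum was miR-128-3p and miR-129-5p. Their sham means were 491235 and 206605 normalized counts and their CCI-ION means 258095 and 283191. The overlap thus describes these miRNAs and not neurons as a whole. Of the 7 listed miRNAs of vascular smooth muscle and fibroblasts 3 rose and none fell: miR-143-3p by 1.11, miR-145-5p by 0.85 and miR-199a-5p by 1.66 on the log2 scale (limma adjusted p 0.0334, 0.0450 and 0.0190). The last 2 are also among those the study picked from these libraries. That list summed to 41857 to 58203 normalized counts in sham libraries and 88922 to 107794 in CCI-ION libraries. The part of these differences in the lower values of the members was not tested.

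By limma with Benjamini-Hochberg adjustment, no miRNA passed among 2 of endothelium, 7 of microglia and leukocytes, 3 of erythrocytes and 6 of choroid plexus and ependyma, where 1, 2, 1 and 1 had an unadjusted p under 0.05. Over all miRNAs that share was 33.0%. The median log2 fold changes of these lists were -0.23, 0.06, -0.08 and 0.27. Their most abundant miRNAs had log2 fold changes of 0.44 (miR-126a-3p), -0.25 (miR-146b-5p), -0.08 (miR-486) and 0.31 (miR-204-5p). Except for choroid plexus and ependyma, each of these lists held miRNAs on both sides of 0, with log2 fold changes from -0.91 (miR-126a-5p) to 0.44 for endothelium, from -0.84 to 0.95 (miR-223-3p, limma adjusted p 0.0597) for microglia and leukocytes, from -1.12 to 1.07 (miR-451-5p, limma adjusted p 0.0649) for erythrocytes and from 0.05 to 0.57 for choroid plexus and ependyma. The lowest of the erythrocyte list, miR-144-5p, was at 0 in some libraries. miR-126a-5p, miR-223-3p, miR-451-5p and miR-144-5p were named after their values were seen. No miRNA of any list was at 0 in all libraries.

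**Figure D4:**
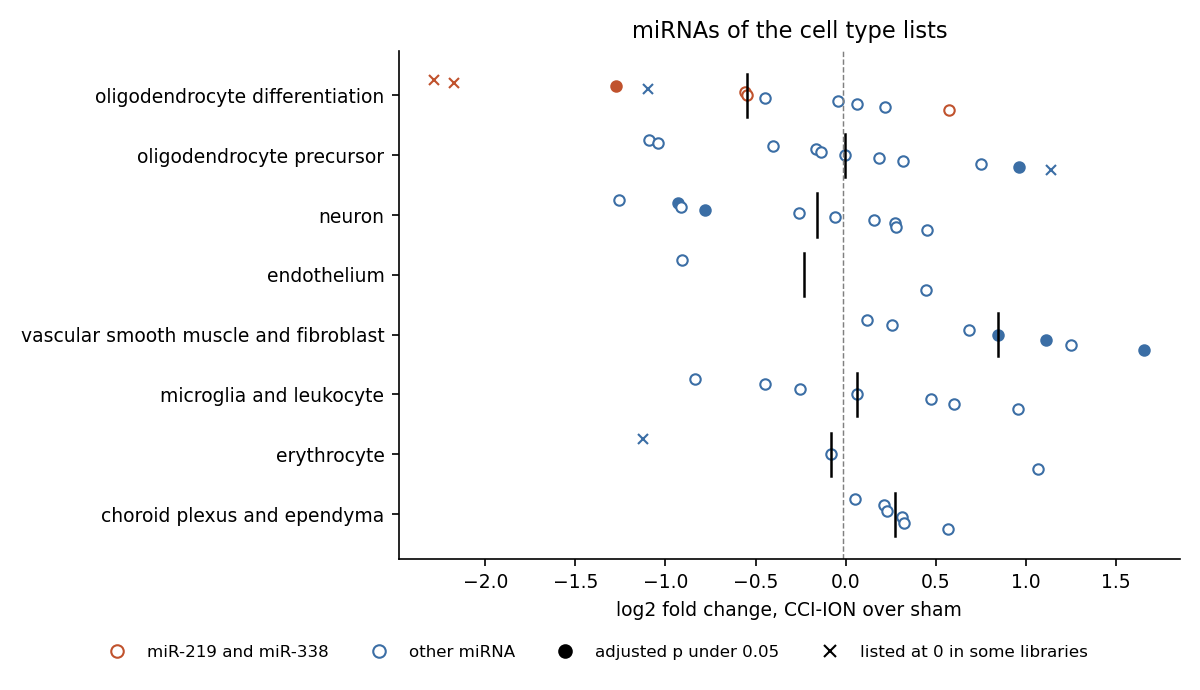
Log2 fold change, CCI-ION over sham (horizontal axis), of each miRNA in the 8 cell type lists, with filled points for an adjusted p under 0.05, crosses for miRNAs listed at 0 in some libraries and a vertical bar at each list's median; the dashed line is the median of all miRNAs, -0.01. In the oligodendrocyte differentiation list the members miR-338-3p, miR-338-5p and miR-219a-2-3p lie at the lower side. The member miR-219a-1-3p is the highest point of that list at 0.58, and the vascular list has its median at 0.85.

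The miRNAs with values most like the members were found from log2 values centred on each miRNA's mean over the 6 libraries. The measure was the root mean square difference from the mean profile, over 361 candidate miRNAs with a mean of at least 100 normalized counts. Against the mean of all 6 members the nearest were miR-7a-5p (root mean square difference 0.29), miR-369-3p (0.30), miR-384-5p (0.31), miR-7b (0.31) and let-7f-5p (0.32), with a median of 0.65 over the 361. This mean profile is swayed by the values of miR-219b and miR-219a-5p that are at 0. Against the mean of the 3 abundant members, a profile chosen after the values were seen, the nearest were miR-221-3p (0.13), miR-151-5p (0.13), miR-124-3p (0.15), miR-22-5p (0.15) and miR-128-3p (0.16), with a median of 0.47. The 5 named first and the 5 named last had no miRNA in common. All 10 had negative log2 fold changes, from -1.23 for miR-369-3p to -0.60 for let-7f-5p. They were picked for likeness to profiles that are lower in CCI-ION rats, so this direction follows from the choice.

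**Figure D5:**
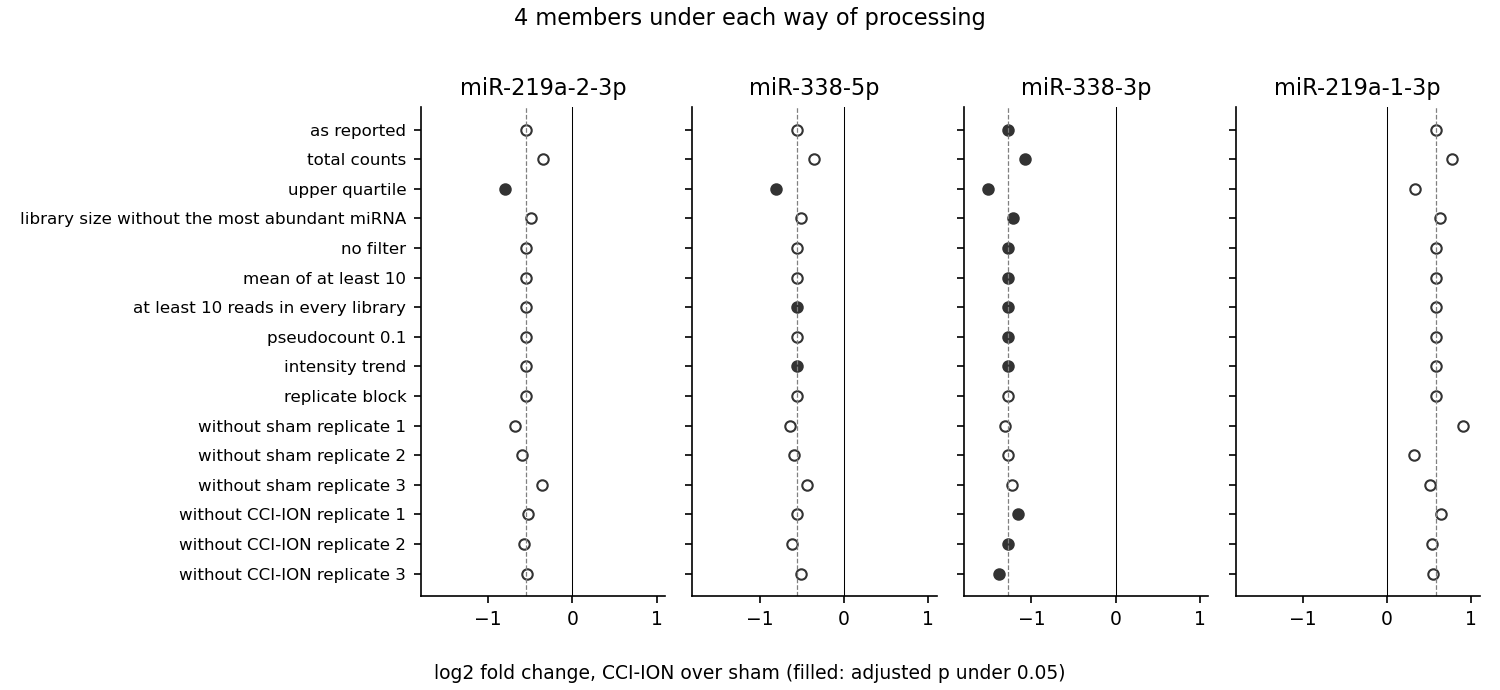
Log2 fold change, CCI-ION over sham (horizontal axis), of the 4 members above 0 in all libraries under each way of processing (rows), with filled points for an adjusted p under 0.05, a dashed line at the reported value and a solid line at 0. miR-338-3p ranges from -1.52 to -1.07 and loses its call under the replicate block and without any sham library, and no point of the 4 members crosses 0.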

How the data were processed

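ARC miRNAs were sequenced in 3 sham and 3 CCI-ION libraries made with a TruSeq RNA kit from total RNA. The authors deposited a signal value for each mature miRNA and library. From the values, these are read counts divided by median-of-ratios size factors computed on the 485 miRNAs that no library lists at 0. The submitters' processing notes name cutadapt 1.14, Bowtie 1.1.1 and the build rn6; the counting and the miRNA annotation are not given in the sources used here.

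log2(normalized count + 1) was compared with limma 3.58.1 (R 4.3.3), two-sided, with Benjamini-Hochberg adjustment and a threshold of 0.05, where the mean of a miRNA reached 1. On this scale the changes of low miRNAs are understated. Arm ratios were fitted likewise. Single values used exact permutation tests (scipy 1.17.1). Scripts were tested on simulated data. Groups came from the sample labels. The labels do not say whether equal replicate numbers pair the libraries. Deviations of same-numbered libraries correlated by -0.03, 0.19 and -0.01, which cannot settle it with 3 libraries a group. The miRNAs named were the members, miRNAs with a member's seed, the miRNA antisense to miR-338, neighbours in level and the 5 nearest profiles. Of each list, its most abundant miRNA and those that passed were also named. Named after their values were seen were miR-138-5p, miR-23a-3p, miR-146a-5p, miR-32-5p and 5 markers of other cell types. The members and lists were chosen with earlier results of these data known. Alternatives covered scaling, filters, pseudocount, trend, block, threshold and leaving out each library.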

Additional observations from a re-analysis of the deposited data

How the results depend on the processing

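Directions of miR-219a-2-3p, miR-338-5p, miR-338-3p and miR-219a-1-3p held in every alternative run. Calls over all miRNAs (38 as reported), members (1) and both oligodendrocyte lists together (2) were, in that order, 94, 3 and 4 with upper-quartile scaling, 96, 2 and 5 with at least 10 reads in every library, 88, 2 and 5 with an intensity trend, 100, 2 and 4 at a threshold of 0.1, and 3, 0 and 0 with the replicate number as a block. In that block 4 members and 8 list miRNAs had an unadjusted p under 0.05. The share of all miRNAs at that level was not counted for the block, so these counts are no result about the members or lists. A mean of at least 10 gave 63 calls over all miRNAs, and a pseudocount of 0.1 gave 1 on the lists. With each library left out the calls ranged from 7 to 43, 0 to 2 and 0 to 4. They were 9, 11 and 7 over all miRNAs without sham replicates 1, 2 and 3 and 11 without CCI-ION replicate 3. The 1 member call without sham replicate 2 was miR-219a-5p, not miR-338-3p. The log2 fold change of miR-338-3p was -1.27 in the replicate block, where its limma adjusted p was 0.0823, and -1.38 to -1.16 with a library left out. With upper quartiles miR-219a-2-3p (-0.80) and miR-338-5p (-0.81) passed, as did miR-338-5p at -0.56 with at least 10 reads or the trend. With a library left out their ranges were -0.68 to -0.36 and -0.64 to -0.45, and neither passed. Total counts gave -0.35 and -0.36, and neither passed there. Hairpins with a called arm ratio (20 as reported) numbered 32 with at least 10 reads, 0 in the replicate block (58 with an unadjusted p under 0.05) and 3 to 22 with a library left out: 4, 6 and 3 without sham replicates 1, 2 and 3 and 12 without CCI-ION replicate 1. The miR-338 arm ratio stayed at 0.71 and passed with a mean of at least 10 or at least 10 reads, and ran from 0.60 to 0.87 with a library left out. Of the fits that left out a library, only the one without CCI-ION replicate 3 passed for this ratio. Whether the replicate numbers pair the libraries is not known, so calls lost in the block stand as a limit, that of miR-338-3p included. The 2 count tests planned (edgeR and DESeq2) were not run, because the reads recovered from the deposited values hold no count above 0 and under 5. Depth limits miR-219b, miR-219a-5p and miR-219a-1-3p most. Why the calls moved was not tested.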
